A study of Caenorhabditis elegans with 6 samples.

Results

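Among the genes of *C. elegans* for catalases, superoxide dismutases, peroxiredoxins, glutathione peroxidases and thioredoxins, 6 probe sets could be read by name in these arrays. They belong to the catalase gene *ctl-2*, the superoxide dismutase gene *sod-1*, the thioredoxin genes *trx-3* and *trx-5*, and the glutathione peroxidase genes *gpx-6* and *gpx-8*. They were found as the entries whose gene symbol begins with ctl-, trx-, gpx-, prdx- or sod- in either of the 2 comparison tables that the authors deposited, out of 29317 probe sets on the array and 4957 that these tables name. RefSeq lists 24 genes with such symbols, and the other 18 were not analysed here, among them *ctl-1*, *ctl-3*, *sod-3* and all 3 peroxiredoxin genes. Because the tables hold only entries with an unadjusted p of 0.05 or less, the members had been selected on these samples. The table of baicalein against DMSO named *ctl-2*, *sod-1*, *trx-3*, *trx-5* and *gpx-6*, and that of DMSO against water named *gpx-8*. For each gene 1 probe set was named, and further probe sets of these genes could be among those without a name. The identifiers were 18506271 for *ctl-2* (Y54G11A.5, chromosome II), 18494254 for *sod-1* (C15F1.7, chromosome II) and 18540716 for *trx-3* (M01H9.1, chromosome IV). The others were 18592538 for *trx-5* (K02H11.6, chromosome V), 18541991 for *gpx-6* (T09A12.2, chromosome IV) and 18470454 for *gpx-8* (F55A3.5, chromosome I).

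These enzymes remove reactive oxygen species. Superoxide dismutases turn superoxide into hydrogen peroxide, which catalases break down to water and oxygen, while peroxiredoxins and glutathione peroxidases reduce peroxides with electrons from thioredoxin or glutathione. In the worm, SOD-1 is the main cytosolic enzyme with copper and zinc, CTL-2 is the catalase of the peroxisome and TRX-3 is a thioredoxin of the intestine. Several genes of these families are targets of the FOXO factor DAF-16 and of the Nrf2 orthologue SKN-1, which the study examined as mediators of flavonoid effects.

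Whole wild-type N2 worms were compared in 3 groups of 2 arrays. The worms stood for 48 h at 20 °C in S medium with water, with 0.4% DMSO, or with 100 µM baicalein, a flavone whose stock was dissolved in DMSO. Exposure began in L1 larvae 16 to 18 h after hatching, and the labels give all groups as young adults 3 days after hatching. The methods describe 3 independent samples and the arrays used here are trials 1 and 2, so each value below has n = 2. The labels call the trials independent but do not say that they came from separate cultures, so the tests below rest on array-to-array spread alone, which may be in part technical. Over all probe sets the 2 arrays of a group correlated at 0.986 in water, 0.978 in DMSO and 0.954 with baicalein.

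The stage markers set the water arrays apart, against the label they share with the rest. Markers could be read only where a deposited comparison of these arrays named them, so this separation is not independent evidence. Of 17 genes of the molting larva 7 were named. Their mean log2 value was 6.05 to 6.14 in water, 1.42 to 1.48 in DMSO and 1.56 to 1.78 with baicalein. The yolk genes *vit-1* and *vit-2* (2 named of 6) are expressed by adult hermaphrodites in the intestine. Their mean lay at 1.26 to 1.59 in water and at 9.08 to 9.25 in the other groups. Oocyte and early embryo markers (14 named of 15) were at 2.31 to 2.90 in water, 7.79 to 7.86 in DMSO and 6.02 to 6.20 with baicalein. Sperm markers (8 named of 20) ran from 1.31 to 1.62 in water, 4.12 to 4.39 in DMSO and 5.16 to 5.25 with baicalein, and body wall muscle markers (7 named of 10) from 5.997 in DMSO to 6.74 with baicalein. In comparisons with water, stage and treatment cannot be told apart. In whole worms, fewer cells of a type and less RNA per cell cannot be told apart either.

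**Figure D1:**
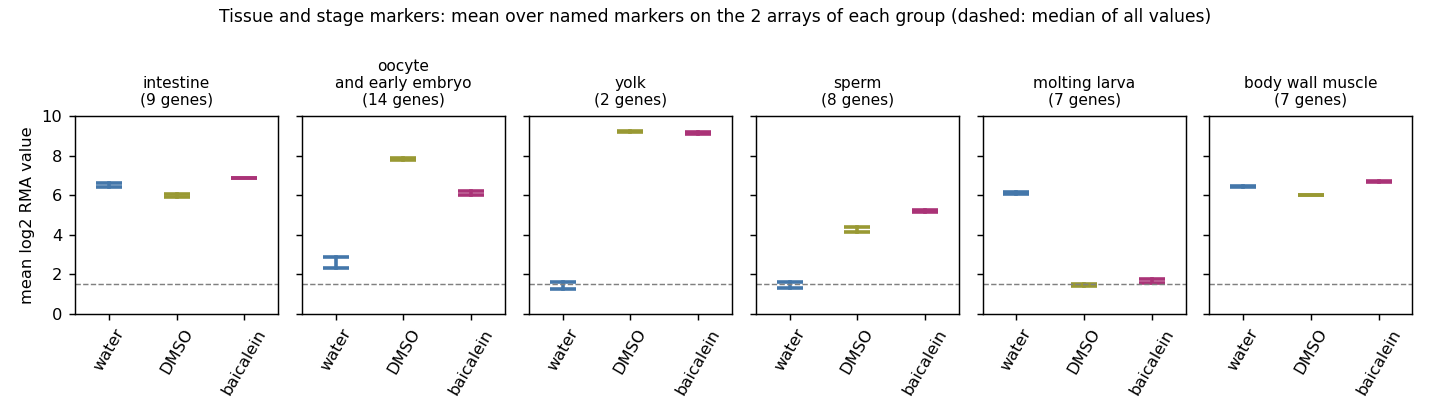
Mean log2 RMA value over the named markers of each tissue or stage (y axis), for water, DMSO and baicalein (x axis). Each pair of ticks joined by a line gives the 2 arrays of a group, and the dashed line is the median of all values, 1.51. Molting markers are high only in the water arrays among these 3 groups, while yolk, oocyte and sperm markers are lowest there. Intestine and body wall muscle markers differ less. The markers were selected on these same arrays, so the separation is not independent evidence.

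The values are log2 intensities after RMA, which corrects background and normalizes arrays to each other. The upper quartiles of the deposited arrays still differed. They were 3.231 and 3.257 in water, 3.005 and 2.778 in DMSO, and 2.737 and 2.464 with baicalein. The median of all values, 1.51, was taken here as the background, the level of little signal. By it, *ctl-2*, *sod-1* and *trx-3* were above background in every group, *gpx-6* was above it in water and with baicalein, and *trx-5* was under it in all groups. The means of *gpx-8* were under it in water and with baicalein, and barely above it in DMSO. Differences were tested with limma over all 6 arrays, with Benjamini-Hochberg adjustment over all 29317 probe sets and a threshold of 0.05, and each is given as the first group minus the second.

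**Figure D2:**
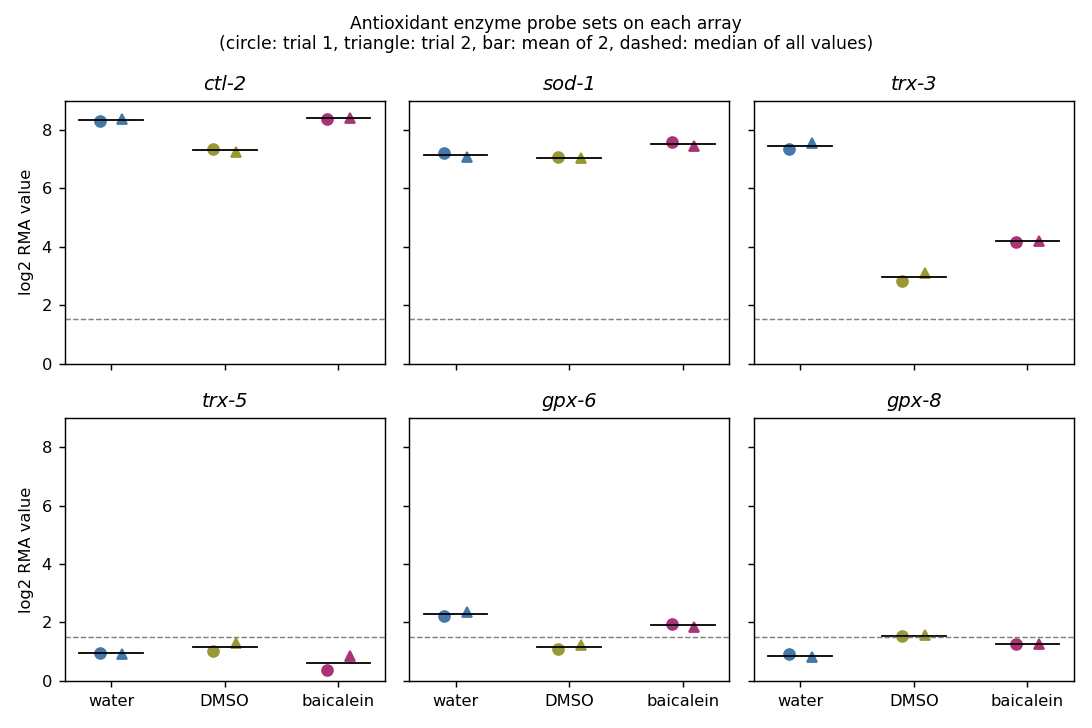
Log2 RMA value (y axis) of the 6 probe sets on each array of the water, DMSO and baicalein groups (x axis). Circles are trial 1, triangles trial 2, bars the mean of the 2 arrays, and the dashed line is the median of all values, 1.51. The DMSO arrays are the lowest for ctl-2, trx-3 and gpx-6, and the baicalein arrays are the highest for sod-1.

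The catalase gene *ctl-2* was lower in DMSO than in both other groups. Its log2 values were 8.32 and 8.38 in water, 7.35 and 7.26 in DMSO, and 8.39 and 8.42 with baicalein. The DMSO arrays stood at least 0.98 below any array of the other groups, while the baicalein and water arrays were separated by only 0.0088. With baicalein *ctl-2* was 2.15-fold higher than with DMSO (95% interval 1.65 to 2.81), a log2 difference of 1.105 (standard error 0.16, adjusted p = 0.0125 from limma). A rise of this size or more was seen in 1.28% of all probe sets. Against water, DMSO-treated worms had 2.07-fold less *ctl-2* signal (log2 difference -1.05, adjusted p = 0.00358 from limma). The difference between baicalein and water was 0.055 on the log2 scale with a 95% interval of -0.33 to 0.44, which leaves room for differences of up to 1.36-fold upward.

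These 3 comparisons share arrays, so that a low DMSO value enters both as a fall against water and as a rise with baicalein, and they are not separate evidence. The call for baicalein against DMSO also depended on both DMSO arrays. The log2 difference was 1.149 without DMSO replicate 1 and 1.06 without DMSO replicate 2, and the call was lost in both fits. Calls over all probe sets fell in these fits as well, so the loss is not particular to *ctl-2*. In RefSeq (WBcel235) the next 2 coding genes after *ctl-2* are *ctl-1* and *ctl-3*, catalase genes of closely related sequence. How far their transcripts contribute to this probe set was not tested.

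The intestinal thioredoxin gene *trx-3* had the widest range of the 6 members. It was at 7.35 and 7.57 in water, at 2.84 and 3.11 in DMSO and at 4.15 and 4.21 with baicalein. None of the groups overlapped, and the nearest DMSO and water arrays were 4.24 apart. DMSO-treated worms had 22.3-fold less *trx-3* signal than water-treated worms, with a log2 difference of -4.48 (standard error 0.18, 95% interval -4.92 to -4.04, adjusted p = 2.21e-05 from limma). A fall at least as deep was seen in 0.58% of all probe sets. With baicalein *trx-3* was 2.30-fold higher than with DMSO (95% interval 1.69 to 3.13, adjusted p = 0.0146 from limma) and 9.69-fold lower than in water (log2 difference -3.28, adjusted p = 7.71e-05 from limma).

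The rise of *trx-3* over DMSO lost its call in the same 2 fits. Its log2 difference was 1.07 without DMSO replicate 1 and 1.338 without DMSO replicate 2. The fall of *trx-3* in DMSO against water kept its call with any single array left out, at -4.615 to -4.347. Other genes of the intestine moved less far on average. Over 9 named intestine markers the mean log2 value was 6.41 to 6.62 in water, 5.89 to 6.08 in DMSO and 6.87 in both baicalein arrays, and none was under the background in any group. Of these 9 markers, 3 fell in DMSO against water, the intermediate filament genes *ifb-2*, *ifp-1* and the filament organizer gene *ifo-1*, with log2 differences of -1.70, -2.99 and -2.39. The lysozyme gene *lys-7* and the protease gene *cpr-1* rose by 1.77 and 0.98, and 4 did not pass. Over all probe sets, 16.7% were called lower and 10.9% higher in this comparison. The molting markers went down in the same comparison, all 7 of them, and 5 were then under the background. All but *mlt-10* had been named by the table of this comparison, so that count is not independent evidence. The part of the molting markers in the fall of *trx-3* was not tested.

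The second thioredoxin gene, *trx-5*, gave little signal. Its values were 0.97 and 0.93 in water, 1.01 and 1.31 in DMSO, and 0.38 and 0.85 with baicalein, all under the median of all values. No fold change is given, and the adjusted p from limma was 0.219 for baicalein against DMSO and 0.522 for DMSO against water.

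The superoxide dismutase gene *sod-1* was the most even of the members with clear signal. Its values were 7.22 and 7.09 in water, 7.07 and 7.04 in DMSO, and 7.59 and 7.47 with baicalein. The baicalein arrays were the highest, by 0.25 over the nearest water array and 0.39 over the nearest DMSO array. The difference between baicalein and DMSO was 0.47 on the log2 scale, or 1.39-fold (95% interval 1.06 to 1.82), with an unadjusted p of 0.0259 and an adjusted p of 0.155 from limma, and did not pass. For DMSO against water it was -0.10 (95% interval -0.49 to 0.30, adjusted p = 0.698 from limma), and 0.01 with each array centred on its median. Against water, the baicalein difference was 0.37 (95% interval -0.02 to 0.77, adjusted p = 0.153 from limma).

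The glutathione peroxidase gene *gpx-6* was dim and, like *ctl-2*, lowest in DMSO. Its values were 2.23 and 2.36 in water, 1.09 and 1.23 in DMSO, and 1.95 and 1.86 with baicalein. Since DMSO was under the background, the folds are given with DMSO raised to the background of 1.51. They are point values without an interval. By them *gpx-6* fell 1.72-fold in DMSO against water and was 1.31-fold higher with baicalein than with DMSO. The measured log2 difference was -1.14 for the fall (standard error 0.17, 95% interval -1.54 to -0.73, adjusted p = 0.0031 from limma). For baicalein against DMSO it was 0.75 (95% interval 0.34 to 1.15, adjusted p = 0.0437 from limma). The second call was lost when any single array was left out, with adjusted p-values from limma of 0.0611 to 0.195, and in 6 of the other 8 settings tried. Against water, baicalein gave -0.39 (95% interval -0.79 to 0.01, adjusted p = 0.146 from limma).

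The entry for *gpx-8* is a pseudogene in RefSeq. Its values were 0.91 and 0.81 in water, 1.549 and 1.555 in DMSO, and 1.257 and 1.254 with baicalein. With values under the background raised to it, DMSO exceeded water by at least 1.03-fold, although the measured difference of 0.69 had an adjusted p of 0.0193 from limma. That p was 0.0766 to 0.135 when a DMSO or water array was left out. With baicalein the measured difference from DMSO was -0.30 (adjusted p = 0.374 from limma).

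**Figure D3:**
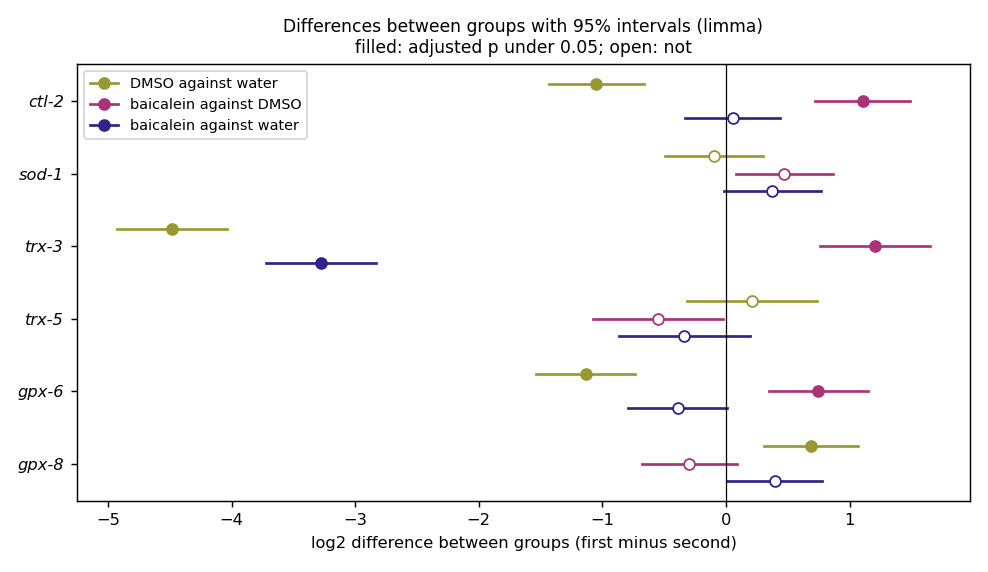
Log2 difference between groups, first minus second (x axis), for the 6 genes (y axis) in the comparisons DMSO against water, baicalein against DMSO and baicalein against water. Points are limma estimates, lines 95% intervals, and filled points have an adjusted p under 0.05. For ctl-2 the DMSO and baicalein comparisons lie at -1.05 and 1.105 and baicalein against water near 0, while trx-3 stays 3.28 below water with baicalein.

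Counted together, 3 members rose with baicalein against DMSO (*ctl-2*, *trx-3* and *gpx-6*), none fell and 3 did not pass. Over all probe sets, 1.73% were called higher and 7.03% lower, but the table of this comparison named 5 of the 6 members because of their p, so nothing is read from that count. In DMSO against water *ctl-2*, *trx-3* and *gpx-6* fell, *gpx-8* rose, and *sod-1* and *trx-5* did not pass, while 10.9% of all probe sets were called higher and 16.7% lower. Nothing is read from this count either, since the table of this comparison named *gpx-8* and the other 5 members were named through a comparison that uses the same DMSO arrays. In baicalein against water, which shares arrays with both, only *trx-3* fell and none of the 6 rose, while 6.79% of all probe sets were called higher and 15.4% lower. The median log2 difference of the members was 0.61, -0.57 and -0.14 in these comparisons, and 0.05, 0.09 and 0.07 over all probe sets. Nothing is read from these medians either, since the members were selected on these same arrays. The arrays of the groups did not overlap for any of the 6 members in any comparison, which also held for 46.3%, 73.0% and 69.1% of all probe sets.

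Since the water arrays stood apart, baicalein and DMSO were also compared on their 4 arrays alone. *ctl-2* and *trx-3* then still passed (adjusted p = 0.0446 and 0.0439 from limma), and *gpx-6* and *sod-1* did not (0.113 and 0.294). In the fit over all 6 arrays, tissue markers differed between these groups as well. With baicalein 3 of 9 intestine markers rose, none fell and 6 did not pass (median log2 difference 0.75). Those that rose were the metallothionein gene *mtl-2* (2.57), *lys-7* (1.21) and *ifb-2* (0.92). The paper lists *mtl-2* as raised by baicalein. It lists *lys-7* as raised by DMSO against water, a comparison in which stage and treatment cannot be told apart. Whether either gene follows treatment or tissue here was not tested. Of 7 body wall muscle markers 4 rose and none fell (0.80), and 4 of 8 sperm markers rose and 1 fell (1.41). Of 14 oocyte markers 12 fell and none rose (-1.79), and the 7 molting and 2 yolk markers did not pass. Over all probe sets, 1.73% were called higher and 7.03% lower in this comparison, again over all 6 arrays. The named oocyte markers all came from the table of this comparison, and every other marker from a table of these samples. These counts are therefore not independent evidence of direction. The part of these tissues in the rises of the members was not tested.

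Of the calls for baicalein against DMSO, 19.8% were higher, and this share was 45.9% with quantile normalization applied again and 42.5% after cyclic loess normalization. The directions of *ctl-2*, *trx-3* and *gpx-6* in that comparison and in DMSO against water were the same under each scaling.

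**Figure D4:**
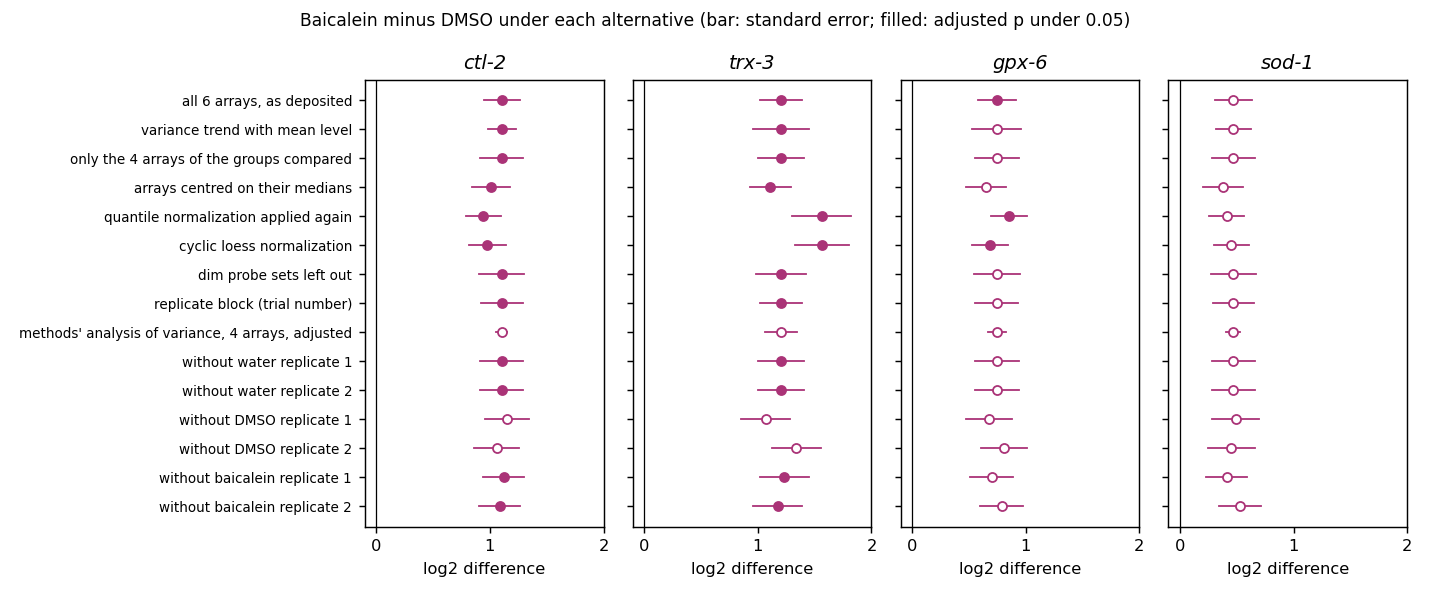
Log2 difference of baicalein minus DMSO (x axis) for ctl-2, trx-3, gpx-6 and sod-1 under each way of analysing the arrays (y axis). Points are estimates, bars standard errors, and filled points have an adjusted p under 0.05. All estimates lie above 0, from 0.38 for sod-1 to 1.57 for trx-3, and the points of ctl-2 and trx-3 are open without either DMSO array and under the methods' analysis of variance.

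Partners of the thioredoxin and glutathione systems, among them enzymes with a thioredoxin fold, were given by a list of 22 genes, of which 7 were named. In DMSO against water 5 of these fell, none rose and 2 did not pass, with a median log2 difference of -1.39, where 16.7% of all probe sets were called lower and 10.9% higher. They were the protein disulfide isomerase genes *pdi-6* (3.86-fold, adjusted p = 0.000443 from limma), *pdi-2* (3.56-fold) and *pdi-3* (2.17-fold), whose enzymes form disulfide bonds with a thioredoxin fold, the methionine sulfoxide reductase gene *msra-1* (2.77-fold) and the sestrin gene *sesn-1* (2.62-fold). With baicalein against DMSO 0 of 7 passed in limma, with a median of 0.32. The mitochondrial thioredoxin reductase gene *trxr-2* was at 2.27 in water, 2.30 in DMSO and 1.93 with baicalein, with adjusted p-values from limma of 0.94 in the solvent comparison and 0.394 with baicalein. Thus *trx-3* and the disulfide isomerases were lower in DMSO while *trxr-2* and the thioredoxin-like gene *txl-1* did not pass.

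Of 11 genes of oxidant producers and haem peroxidases 2 were named, the dual oxidase *bli-3*, which crosslinks the cuticle with peroxide, and its maturation factor *doxa-1*. Both genes fell in DMSO against water, by 1.68 and 2.07 on the log2 scale (adjusted p = 0.00263 and 0.000276 from limma), and neither passed with baicalein against DMSO (0.0799 and 0.377). Of 26 genes of peroxisome biogenesis and peroxisomal oxidation, 3 were named. The thiolase gene *daf-22*, of the peroxisome like CTL-2, fell 2.12-fold in DMSO against water (adjusted p = 0.00533 from limma), with log2 means of 7.67 in water, 6.58 in DMSO and 7.34 with baicalein. Its difference of 0.76 between baicalein and DMSO did not pass (adjusted p = 0.0537 from limma). The acyl-CoA oxidase gene *acox-1.3*, whose family yields hydrogen peroxide, rose by 0.78 in DMSO against water, and the import factor gene *prx-19* fell by 0.81 with baicalein against DMSO.

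Glutathione S-transferases, which conjugate glutathione to reactive compounds, were named for 10 of 49 genes. With baicalein against DMSO 4 rose, none fell and 6 did not pass, with a median log2 difference of 0.73, where 1.73% of all probe sets were called higher and 7.03% lower. They were *gst-20* at 2.40-fold (adjusted p = 0.0244 from limma), *gst-12* at 1.90-fold (0.0327), *gst-5* at 1.82-fold (0.0402) and *gst-27* at 1.69-fold (0.0462). In DMSO against water *gst-5* and *gsto-1* fell by 1.31 and 1.01 and *gst-20* rose by 0.99, and 7 did not pass. The mean of *gst-5* (6.67 in water, 5.36 in DMSO and 6.22 with baicalein) was thus lowest in DMSO, as for *ctl-2* and *gpx-6*, while that of *gst-20* (6.73, 7.73 and 8.99) was lowest in water.

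Among 19 regulators upstream of these enzymes 8 were named. With baicalein against DMSO 5 fell, none rose and 3 did not pass, with a median of -0.97, where 7.03% of all probe sets were called lower and 1.73% higher. They were the phosphatase gene *daf-18* (-2.40, adjusted p = 0.00536 from limma), the heat shock factor gene *hsf-1* (-2.28), *hcf-1* (-1.21), the phosphoinositide 3-kinase gene *age-1* (-1.17) and the sirtuin gene *sir-2.1* (-0.77). The FOXO gene *daf-16* was at 4.87 in water, 4.30 in DMSO and 3.80 with baicalein, and its difference between baicalein and DMSO was -0.51 (adjusted p = 0.176 from limma). In DMSO against water 4 of the 8 rose, among them *daf-18* by 3.12, while the FoxA gene *pha-4* fell by 2.44 and 3 did not pass. In that comparison 10.9% of all probe sets were called higher and 16.7% lower. All these lists hold only genes that a table of these samples names, so their counts are not independent evidence of direction. Oocyte and early embryo markers were higher in DMSO than in water in 14 of 14 cases, and their part in the changes of the regulators was not tested.

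**Figure D5:**
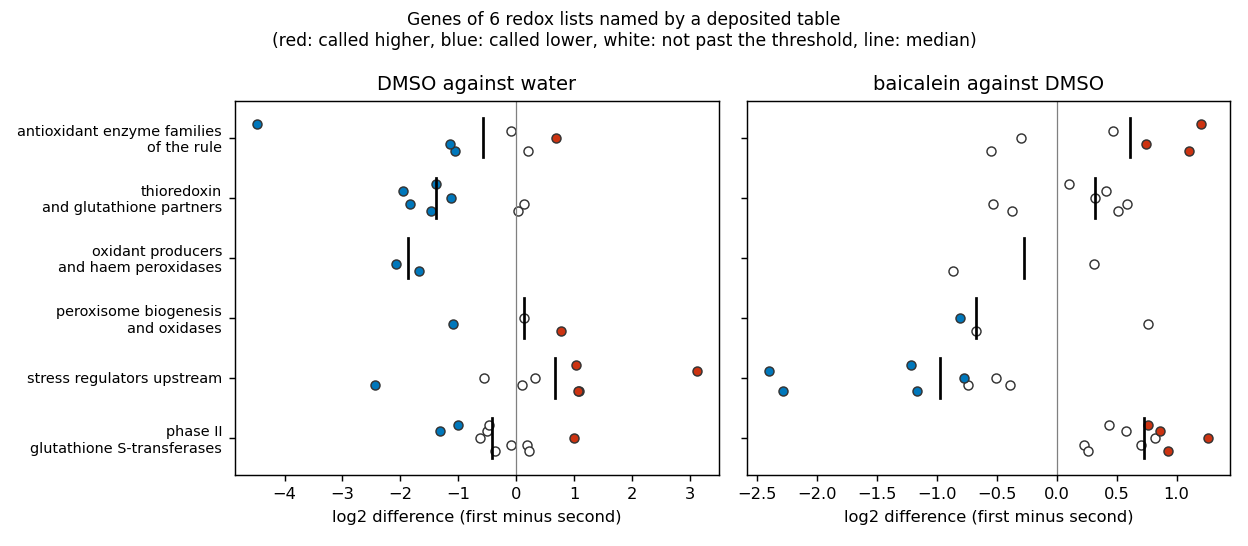
Log2 difference (x axis, first group minus second) of the genes of 6 redox lists (y axis) that a deposited table names, for DMSO against water and baicalein against DMSO. Each point is 1 gene, red where called higher, blue where called lower and white where not past the threshold, and the black line is the list's median. With baicalein the medians of the antioxidant families and the glutathione S-transferases lie at 0.61 and 0.73, and that of the upstream regulators at -0.97. The genes were selected on these same arrays, so the medians are not independent evidence.

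The named genes whose profiles lay nearest to each member were sought among 4900 named genes, by the distance between log2 values centred on each gene's mean over the 6 arrays. For *ctl-2* they were C18B2.4 (distance 0.19), T23E7.2 (0.20) and the neuropeptide gene *nlp-49* (0.21), whose own means were 6.62 in water, 5.51 in DMSO and 6.55 with baicalein. For *trx-3* they were the collagen gene *col-48* (0.32), the F-box gene *fbxa-157* (0.49) and Y54G2A.10 (0.62), and *col-48* lay at 5.87, 1.36 and 2.44 in the same order. The nearest to *gpx-6* were *idhb-1*, a subunit gene of isocitrate dehydrogenase, F09F7.5 and *acer-1* (0.12 to 0.18), and *idhb-1* was well above background at 8.55, 7.43 and 8.15. For *sod-1* they were *srj-26*, which was under background, the transthyretin-like gene *ttr-16* and T22C8.6 (0.093 to 0.11). Those of *gpx-8* were W06A7.11, C34H3.14 and T27B1.5, and those of *trx-5* were F13D11.18, *byn-1* and C05D9.10. The likeness rests on 3 groups of 2 arrays and is a description.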

How the data were processed

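Labelled cDNA was made from 3.5 ng of whole-worm RNA per array for an Affymetrix gene array, 6 arrays in 3 groups of 2. The log2 values were deposited by the authors after RMA. Array medians ran from 1.42 to 1.59. The version of RMA and the genome build are not given in the sources used here, so no coordinates are printed. Gene symbols, entered as other, come from the 2 tables deposited by the authors. Their fold changes and p-values from an analysis of variance were not used. Names were updated through RefSeq (WBcel235): 4300 by accession, 572 by symbol, and 85 kept as written. Entries shifted by a comma (113) were realigned.

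The groups entered limma 3.58.1 in R 4.3.3 (3 residual and 3.51 prior degrees of freedom), with no filter and Benjamini-Hochberg adjustment over 29317 probe sets. The fit was checked on simulated data. Python 3.11.15 with pandas 2.3.3 made the counts. The number of arrays limits the precision. Members and lists were chosen with earlier results of these data known. Named genes were all members, up to 4 per list by smallest p, and the 3 nearest profiles of each member. Others are named as the members of a small count, or after their values were seen (*trxr-2*, *txl-1*, *daf-16*). A gene of a list was read by its probe set of highest mean. Alternatives were a variance trend, only the arrays compared, median centring, renewed quantile and cyclic loess normalization, a filter on dim probe sets, a trial block, the methods' analysis of variance and each array left out.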

Additional observations from a re-analysis of the deposited data

How the results depend on the processing

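Of 141 member differences over the 8 settings other than leaving out arrays, 124 kept their direction and their side of the threshold. Direction could turn only under median centring, quantile or cyclic loess normalization, since the other settings leave the log2 difference unchanged. The 141 also include differences that had not passed in the first place. Under the methods' analysis of variance, with 2 residual degrees of freedom, calls were lost after adjustment for baicalein against DMSO in *ctl-2* (1.105, adjusted p = 0.342), *trx-3* (1.204, 0.358) and *gpx-6* (0.75, 0.356), for DMSO against water in *ctl-2* (-1.05, 0.0528), *gpx-6* (-1.14, 0.0671) and *gpx-8* (0.69, 0.0612), and for baicalein against water in *trx-3* (-3.28, 0.0735). The call of *gpx-6* for baicalein against DMSO was also lost with a variance trend (0.75, adjusted p = 0.078), only the arrays compared (0.75, 0.113), median centring (0.65, 0.0787), no dim probe sets (0.75, 0.0523) and the trial as a replicate block (0.75, 0.0704). The block ended no other member's call. Trials were not taken as pairs, since deviations of the same trial correlated at -0.05, -0.07 and 0.16. Uncalled directions turned for *sod-1* in DMSO against water with median centring (0.015), for *trx-5* there after cyclic loess (-0.050), and for *ctl-2* in baicalein against water with quantile (-0.13) or cyclic loess normalization (-0.0010). After cyclic loess *trx-5* passed in baicalein against water (-0.65, adjusted p = 0.0477). The cause was not tested.

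With single arrays left out, baicalein minus DMSO ran from 1.06 to 1.15 for *ctl-2*, 1.07 to 1.34 for *trx-3* and 0.68 to 0.81 for *gpx-6*, and DMSO minus water from 0.64 to 0.74 for *gpx-8*. A lone array was assumed to vary like the other groups. Over all probe sets, 507 higher and 2060 lower calls for baicalein against DMSO became 132 and 1046 on 4 arrays, 289 higher with centring, 1276 and 1403 higher with quantile and cyclic loess normalization, and 1 and 0 in the methods' test (1401 and 2019 unadjusted). Without DMSO replicate 1, 0 passed in limma (1658 and 3224 unadjusted), without DMSO replicate 2 there were 20 and 464, and without baicalein replicate 1 or 2 there were 1168 or 993 higher. In DMSO against water, 3183 and 4890 became 487 and 612 in the methods' test, 1793 or 1868 higher without water replicate 1 or 2, and 3230 lower without DMSO replicate 2. In baicalein against water, 1992 and 4513 became 3 and 0 in the methods' test (3234 and 3838 unadjusted), 3097 higher after cyclic loess, 808 and 2776 or 729 and 2600 without water replicate 1 or 2, and 3406 higher without baicalein replicate 1. Higher calls, 39.4% and 30.6% in the comparisons with water, were 48.1% and 46.7% with quantile normalization. Centring shifted the median over all probe sets from 0.09 to 0.20 in DMSO against water.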
